A study of Mus musculus with 6 samples.

Results

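Growth factor ligands of the FGF, EGF, VEGF and PDGF families were examined in the choroid plexus, the epithelial tissue in the brain ventricles that makes cerebrospinal fluid, from mice of 2 ages. The ligand genes were selected by gene symbol alone: all numbered Fgf genes, Vegfa to Vegfd, Pgf, Pdgfa to Pdgfd, Nrg1 to Nrg4, Egf, Hbegf, Ereg, Tgfa and Btc. This gave 40 of the 18193 genes that had a probe set named for a single gene, read by 77 probe sets. Areg, also covered by the selection, was not analysed here. RNA was measured on 6 Affymetrix arrays, of which 3 carried samples taken at 18 months of age and 3 samples taken at 2 months. The animals were all males of the outbred CD1 stock with no other treatment given in the labels, and each array held the plexuses of both lateral ventricles from 1 animal. The question was how plexus transcripts differ between aged and young mice.

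These ligands are secreted or shed proteins that activate receptor tyrosine kinases on neighbouring cells. FGFs bind FGF receptors together with heparan sulphate, EGF-type ligands and neuregulins bind the ErbB receptors, VEGFs bind receptors of endothelial cells, and PDGFs bind receptors of fibroblasts and pericytes. In the choroid plexus the epithelium is known to make VEGF-A, which maintains the leaky, fenestrated capillaries beneath it, and ligands released into the fluid can reach stem cells along the ventricle wall. A subgroup, the FGF homologous factors, is not secreted and regulates sodium channels inside neurons.

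Values are log2 intensities, which compare mice for the same probe set but do not rank genes by abundance. Each gene was represented by its brightest probe set and was tested if that probe set's mean reached the 40th percentile of all probe sets, a log2 intensity of 4.92. The array medians lay between 5.56 and 5.65. Markers of the plexus epithelium were present in every mouse, and the mean over 10 such genes was 12.11 to 12.19 at 18 months and 12.05 to 12.26 at 2 months. Ttr, its best known product, read 14.25 to 14.36 at 18 months and 14.46 to 14.48 at 2 months. The gap between the 3′ and 5′ probe sets of Gapdh, a measure of RNA quality, was 1.24 to 1.55 at 18 months and 1.43 to 1.67 at 2 months. Brain markers varied from mouse to mouse. The mean over 11 neuron markers was 6.52, 7.39 and 8.48 in the 18-month mice, against 7.40, 6.84 and 8.46 in the 2-month mice. Of 8 pituitary markers listed, 3 were tested. Their log2 differences (18 months minus 2 months) were unlike, at 4.98 for Gh, 1.34 for Pomc and -0.04 for Lhb. The 3 pituitary markers averaged 7.68 to 8.81 at 18 months and 5.95 to 6.54 at 2 months. Their part in the results below was not tested. In tissue samples of this kind, fewer cells of a type and less RNA per cell cannot be told apart.

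No ligand gene passed the test for a difference between the ages. Of the 40 genes, 23 were bright enough to be tested and 17 lay below the filter. By limma, 0 of the 23 had an adjusted p under 0.05, and over all 12681 genes tested the share was 0%. At an unadjusted p under 0.05 there were also 0 of 23, against 7.05% of all genes. The lowest adjusted p among the ligands was 0.722. Of the 23 genes, 9 had differences above 0 and 14 below 0, with a median log2 difference of -0.07 (18 months minus 2 months), beside 0.00 over all genes tested. The single differences ranged from -0.81 for Fgf13, whose 18-month mean lay under the filter, to 0.51 for Vegfb. The 3 mice of one age lay wholly apart from the 3 of the other for 1 gene that was higher, Fgf22 (7.06% of all genes), and 1 that was lower, Pdgfa (6.25% of all genes), or 13.3% of all genes in both directions together.

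For the brightest probe set of each gene, the data bound the size of most of these differences. For 15 of the 23 genes the 95% confidence interval lay within 1 on the log2 scale in both directions, so that a doubling or a loss of equal size fell outside it. The same held for 63.5% of all genes tested. Dimmer probe sets of Pdgfa, Tgfa, Vegfa and Pdgfd, which are among the 15, had intervals that reached past 1. Also among the 15, Fgf3, Fgf5, Fgf9, Fgf11, Fgf20 and Fgf22 had means of 4.92 to 5.27 at each age, close to the filter. For these the interval bounds the difference in signal, and background may hide part of a difference in RNA. The other 8 genes, Fgf1, Fgf2, Fgf12, Fgf13, Fgf14, Nrg3, Vegfb and Vegfc, had intervals that reached further. The spread between mice of the same age was largest for Fgf2, with a pooled SD of 1.17, and for Vegfc with 0.81, beside a median of 0.31 over all genes.

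**Figure D1:**
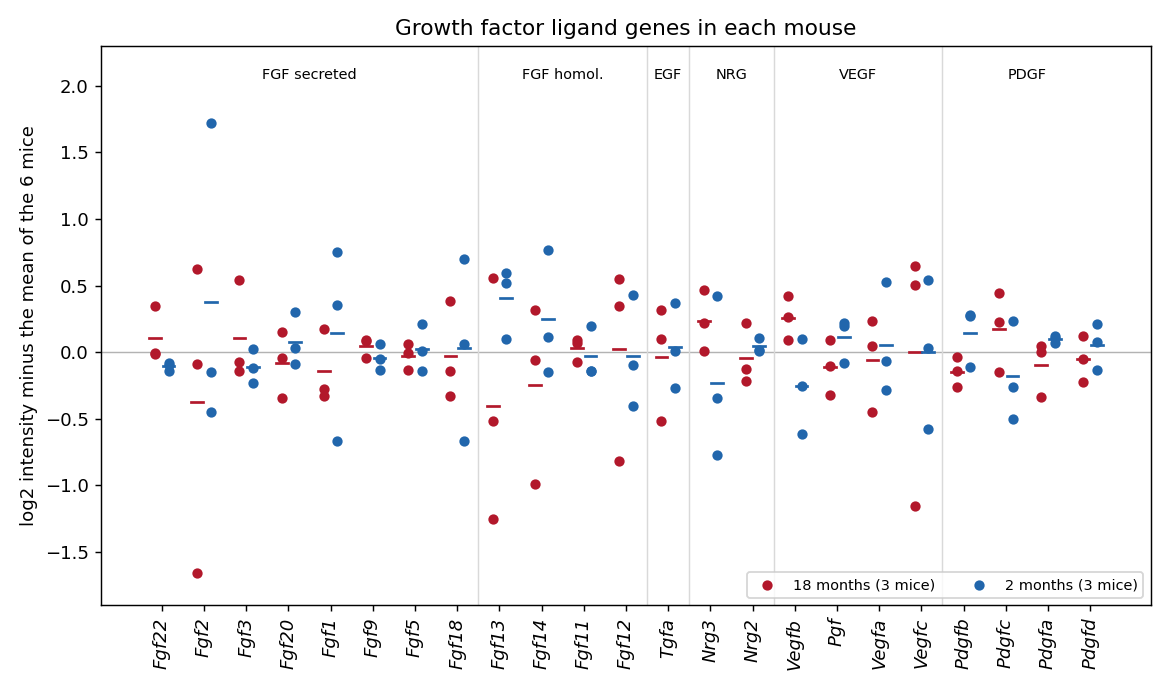
Log2 intensity of each of the 23 tested ligand genes in each mouse, minus that gene's mean over the 6 mice. Red points are the 3 mice at 18 months and blue points the 3 at 2 months, and short bars are group means. The ages overlap for all genes but Fgf22 and Pdgfa, and Fgf2 has the widest spread.

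The VEGF ligands act on blood and lymphatic vessels. Of the 5 genes, 4 were tested, and their median log2 difference was -0.06. Vegfb, whose product binds the receptor Flt1, had the smallest p among the 23 tested ligand genes. Its log2 intensities were 8.19, 8.34 and 8.01 in the 18-month mice, against 7.67, 8.02 and 7.31 in the 2-month mice. The lowest mouse at 18 months thus lay at nearly the same level as the highest at 2 months, and the ranges overlapped. Vegfb averaged 8.18 ± 0.17 at 18 months and 7.67 ± 0.36 at 2 months (SD, n = 3 each). Its log2 difference was 0.51 (SE 0.23, 95% interval -0.04 to 1.06, limma adjusted p = 0.722). Leaving out 2-month replicate 3 gave 0.34.

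Vegfa, the ligand that keeps the plexus capillaries fenestrated, had values of 8.46, 7.96 and 8.65 at 18 months, against 8.94, 8.13 and 8.34 at 2 months. The mice of both ages were interspersed. Its log2 difference was -0.11 (SE 0.29, 95% interval -0.80 to 0.57, limma adjusted p = 0.952). Pgf, a placental relative that also binds Flt1, had 6.11, 5.70 and 5.91 at 18 months, against 5.94, 6.22 and 6.24 at 2 months, a difference of -0.23 (SE 0.19, limma adjusted p = 0.844). Vegfc, which drives the growth of lymphatic vessels, had 6.84, 6.98 and 5.18 at 18 months, against 5.76, 6.88 and 6.36 at 2 months. The low value of 18-month replicate 3 set its spread, and the 95% interval of its difference ran from -1.28 to 1.29. The mean over 6 endothelial markers was 6.25 to 7.05 at 18 months and 6.39 to 6.94 at 2 months, so that the ages overlapped.

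Vegfd, the other lymphatic ligand, lay below the filter and entered no test in the main comparison. Its values were 4.58, 5.34 and 4.73 at 18 months, against 4.36, 3.41 and 4.26 at 2 months. All 3 aged mice were above all 3 young mice, but the young mice all lay under 4.51, the highest mean of the bacterial control probe sets, and the aged mice not far above it. Without a filter its log2 difference was 0.87 (95% interval 0.09 to 1.65, unadjusted p = 0.034), and the adjusted p over the 18193 genes was 0.769. At an unadjusted p under 0.05 it was 1 of 40 ligand genes without a filter, against 6.3% of all genes, and at an adjusted p under 0.05 the share of all genes was 0%. The 3 Vegfd probe sets gave differences of 0.87, 0.92 and 0.37.

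The PDGF ligands act on mesenchymal cells, and all 4 genes were tested. On the brightest probe set each 95% interval lay within 1 on the log2 scale, but second probe sets reached 1.32 for Pdgfa and -1.44 for Pdgfd. The median difference was -0.15. Pdgfb, which endothelial cells release to recruit pericytes, had 6.27, 6.15 and 6.37 at 18 months, against 6.69, 6.68 and 6.30 at 2 months. A single young mouse, replicate 3, fell among the aged ones. The difference was -0.29 (SE 0.18, limma adjusted p = 0.799). Pdgfc, secreted in a latent form that proteases activate, had 10.35, 9.76 and 10.13 at 18 months, against 10.14, 9.41 and 9.64 at 2 months. Its ranges overlapped, and the difference was 0.35 (SE 0.26, limma adjusted p = 0.828), or 0.19 with the mean of all probe sets.

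Pdgfa, a ligand of the receptor Pdgfra, had 10.22, 10.56 and 10.60 at 18 months, against 10.66, 10.67 and 10.62 at 2 months. The ages were separate, but the gap between the nearest mice was far smaller than the spread among the aged mice. Its difference was -0.19 (SE 0.17, limma adjusted p = 0.853). Pdgfd, a ligand of Pdgfrb that is also secreted in latent form, had 9.05, 8.88 and 9.22 at 18 months, against 9.31, 8.97 and 9.18 at 2 months, with a difference of -0.11 (SE 0.18, limma adjusted p = 0.925). Stromal fibroblast markers other than Pdgfra (6 tested) averaged 6.41, 6.37 and 7.16 at 18 months, against 6.86, 7.17 and 7.06 at 2 months, with 18-month replicate 3 among the young mice. Of the 6, 5 had differences below 0 and 1 above 0, and 0 were called. Their part in the PDGF values was not tested.

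Among the 15 secreted FGFs that act locally, 8 were tested and their median difference was -0.06. Fgf22, of the same subfamily as the keratinocyte factor Fgf7, had 5.02, 5.01 and 5.37 at 18 months, against 4.89, 4.95 and 4.93 at 2 months. Its aged mice were all above the young ones by a small margin, and all values were close to the filter. The difference was 0.21 (SE 0.17, limma adjusted p = 0.838), and a dimmer Fgf22 probe set below the filter gave -0.17. Fgf3, known for its part in inner ear development, had 5.64, 4.96 and 5.02 at 18 months, against 5.12, 4.97 and 4.86 at 2 months. The difference was 0.22 (SE 0.23, limma adjusted p = 0.872), and 18-month replicate 1 alone stood above the rest. Without that mouse the difference was 0.00075.

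Fgf2, a mitogen of neural stem cells and endothelial cells, had 7.05, 6.34 and 4.77 at 18 months, against 6.28, 5.98 and 8.15 at 2 months. Its mice differed more within an age than between ages, and its pooled SD exceeded that of 98.1% of genes. The difference was -0.75 (SE 0.76, 95% interval -2.56 to 1.07, limma adjusted p = 0.867). Leaving out 18-month replicate 1 gave -1.24 and 18-month replicate 3 gave -0.10, while leaving out 2-month replicate 2 gave -1.16 and 2-month replicate 3 gave -0.07. Fgf1, an FGF without a signal peptide that binds all FGF receptors, had 5.60, 5.55 and 6.05 at 18 months, against 6.23, 5.21 and 6.63 at 2 months, with a difference of -0.29 (SE 0.38, limma adjusted p = 0.904).

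The remaining secreted FGFs tested were Fgf5, Fgf9, Fgf18 and Fgf20. Their differences were -0.05, 0.085, -0.06 and -0.16, with adjusted p between 0.902 and 0.981 by limma. Fgf9 and Fgf5, a regulator of the hair cycle, varied least between mice, with pooled SDs of 0.087 and 0.14. Both had means close to the filter. Fgf18, known from skeletal growth, had 6.84, 6.31 and 6.13 at 18 months, against 7.15, 6.52 and 5.79 at 2 months.

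**Figure D2:**
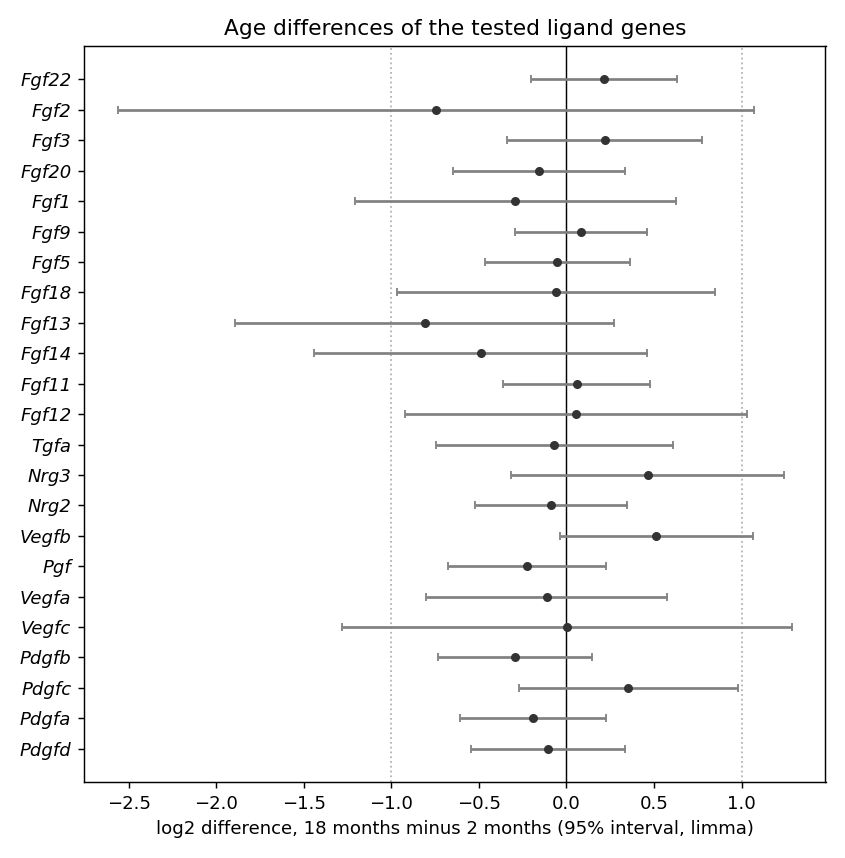
Log2 difference of each tested ligand gene, 18 months minus 2 months, with its 95% confidence interval from limma (3 mice at each age). Dotted lines mark 1 in either direction. All 23 intervals cover 0, and Fgf2 and Fgf13 have the widest reach below -1.

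The 4 FGF homologous factors are intracellular proteins of excitable cells, and all were tested. Fgf13 had 3.73, 4.47 and 5.55 at 18 months, against 5.09, 5.58 and 5.51 at 2 months. Its replicates 1 and 2 at 18 months lay below all other mice. Both values were under 4.51, the highest mean of the bacterial control probe sets. The 18-month mean of Fgf13, 4.58, lay under the filter of 4.92, and the gene passed the filter through its 2-month values. The difference was -0.81 (SE 0.45, 95% interval -1.89 to 0.27, limma adjusted p = 0.778). It was -0.39 without 18-month replicate 1 and -1.29 without 18-month replicate 3. Its other probe set, below the filter, gave 0.24. Fgf14 had 4.95, 5.89 and 6.26 at 18 months, against 5.80, 6.71 and 6.06 at 2 months, a difference of -0.49 (SE 0.40, limma adjusted p = 0.837) that ranged from -0.77 to -0.12 when 1 mouse was left out.

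Fgf12 had 5.99, 7.15 and 7.35 at 18 months, against 6.71, 6.40 and 7.23 at 2 months, with a difference of 0.05 (SE 0.41, limma adjusted p = 0.985). Fgf11 gave 0.06 (SE 0.18, limma adjusted p = 0.959). The mice with the most Fgf12, replicate 3 of each age, were those with the most neuron marker signal. Among the 18-month mice, replicate 1 had the least neuron signal and the least Fgf12, Fgf13 and Fgf14, and replicate 3 the most of each. At 2 months, replicate 2 had the least neuron signal and the least Fgf12, but the most Fgf13 and Fgf14 on their brightest probe sets. The other Fgf14 probe sets above the filter were highest in 2-month replicate 3 (6.84 and 6.47). So was the dimmer Fgf13 probe set, below the filter (5.12). With the neuron score as a covariate the SE of Fgf12 was 0.23, against 0.41 without it, and the difference was 0.12. The same covariate gave -0.75 (SE 0.35, limma adjusted p = 0.639) for Fgf13. The SE of Fgf14 (0.40) stayed within rounding of that without the score, and that of Fgf11 was 0.19 with it and 0.18 without it. With the score 0 of 23 ligand genes had an adjusted p under 0.05.

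**Figure D3:**
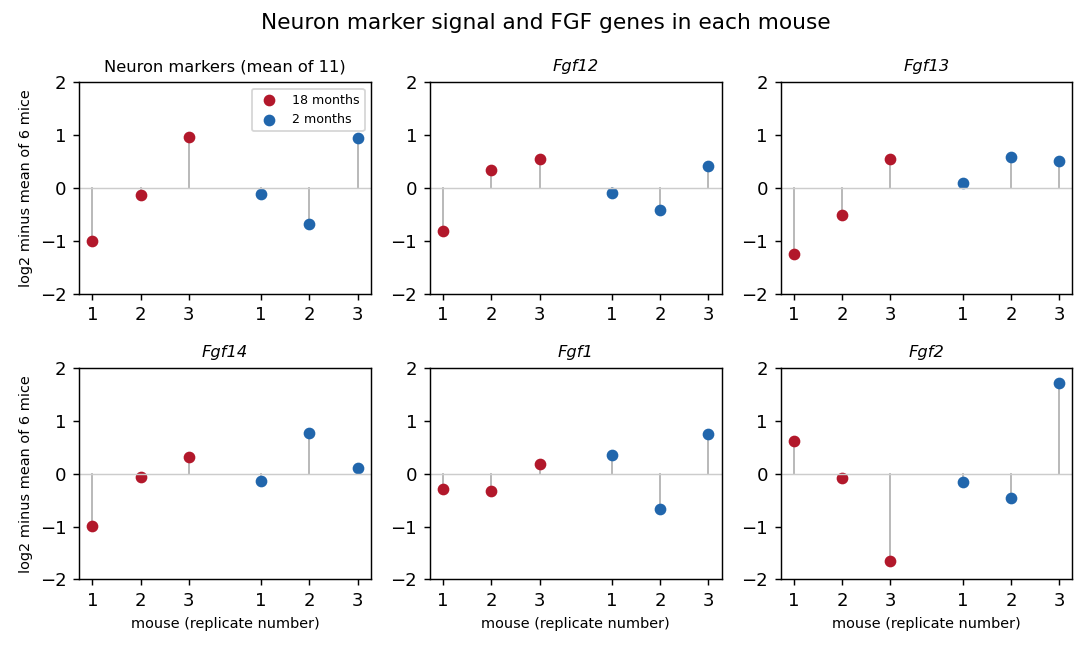
Mean log2 intensity of 11 neuron markers and log2 intensity of 5 FGF genes in each mouse, each minus its mean over the 6 mice. Red points are 18-month and blue points 2-month mice, by replicate number. Fgf12 is lowest in the 2 mice with the least neuron signal, and Fgf2 is lowest in 18-month replicate 3 and highest in 2-month replicate 3.

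Of the 5 EGF-type ligands only Tgfa, a membrane-anchored ligand of Egfr that is shed by Adam17, was bright enough to be tested. It had 8.50, 7.89 and 8.72 at 18 months, against 8.41, 8.13 and 8.77 at 2 months. The ages were interspersed, with a difference of -0.07 (SE 0.28, 95% interval -0.75 to 0.61, limma adjusted p = 0.971). Of the neuregulins, Nrg3, a ligand of Erbb4, had 6.02, 5.56 and 5.77 at 18 months, against 5.20, 4.78 and 5.97 at 2 months. Its 2-month replicate 3 lay among the aged mice, and the difference was 0.46 (SE 0.33, limma adjusted p = 0.818). It was 0.79 without that mouse and 0.20 without 2-month replicate 2. Nrg2, which binds Erbb3 and Erbb4, gave -0.09 (SE 0.18, limma adjusted p = 0.940).

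The 17 ligand genes below the filter were Btc, Egf, Ereg, Hbegf, Nrg1, Nrg4, Vegfd, the hormone-like Fgf15, Fgf21 and Fgf23, and the locally acting Fgf4, Fgf6, Fgf7, Fgf8, Fgf10, Fgf16 and Fgf17. Their values ran from 2.20 to 5.48, and 3 of them, Egf, Fgf7 and Vegfd, reached the filter in a single mouse. The filter kept them out of the main test. Nrg1, a ligand of Erbb3 and Erbb4 that Schwann cells need, had 3.73, 3.59 and 4.49 at 18 months, against 3.49, 3.43 and 3.29 at 2 months. The ages were separate, but all values lay under the highest control mean. Hbegf, a heparin-binding EGF-type ligand, had 4.82, 4.04 and 4.42 at 18 months, against 4.16, 4.18 and 3.91 at 2 months. On the brightest probe set of each gene, ranges were separate for 2 of the 17, Vegfd and Nrg1, against 8.64% of all genes below the filter. A dimmer Fgf7 probe set gave 0.78 with separate ranges, where the brightest gave -0.45. All values of that dimmer probe set lay under the highest control mean.

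Probe sets for the same ligand gene often gave different answers. Of the 77 ligand probe sets, 32 lay above the filter, and 7 genes had more than 1 of them. For 4 of the 7 genes, Pdgfa, Tgfa, Vegfa and Pdgfb, the probe sets differed in sign. Among 6072 genes with several probe sets above the filter, signs differed for 54.3%. In a fit over 27022 probe sets, 0 of the 32 had an adjusted p under 0.05 by limma, against 0.0037% of all probe sets, and 2 had an unadjusted p under 0.05, against 6.47%. Ranges were separate for 5 of the 32 that were higher and 2 that were lower, against 12.6% of all probe sets in both directions together.

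The largest gap was in Pdgfa, where the gap between its probe sets of 0.89 exceeded that of 85.1% of such genes. The dimmer Pdgfa probe set had 8.65, 9.46 and 8.69 at 18 months, against 8.22, 8.23 and 8.25 at 2 months. All 3 aged mice were above the young mice, which lay close together, whereas on the brighter probe set they were below them. Its difference was 0.70 (SE 0.26, unadjusted p = 0.032, limma adjusted p = 0.737). A second Tgfa probe set had 7.28, 7.08 and 7.25 at 18 months, against 6.18, 6.55 and 6.63 at 2 months. Here too the ages were separate, and the difference was 0.75 (SE 0.20, unadjusted p = 0.007, limma adjusted p = 0.636). The other dimmer Tgfa probe set gave 0.30 (SE 0.20), again with separate ranges.

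The dimmer Vegfa probe set had 8.26, 9.43 and 8.24 at 18 months, against 8.20, 8.07 and 7.65 at 2 months. The ages were just separate, with a single aged mouse, replicate 2, far above the rest, and the difference was 0.67 (SE 0.37, limma adjusted p = 0.821). The second Pdgfb probe set gave 0.29 where the first gave -0.29. A dimmer Pdgfd probe set gave -0.70 (SE 0.31, limma adjusted p = 0.780). All 3 Fgf14 probe sets above the filter lay below 0, from -1.01 to -0.49, and both Pdgfc probe sets lay above it. The dimmer Fgf14 probe sets had 18-month means of 4.81 and 4.90, under the filter of 4.92. They passed it through their 2-month values, so the shared sign is not read as support. The one at -1.01 had an SD of 2.20 at 18 months.

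**Figure D4:**
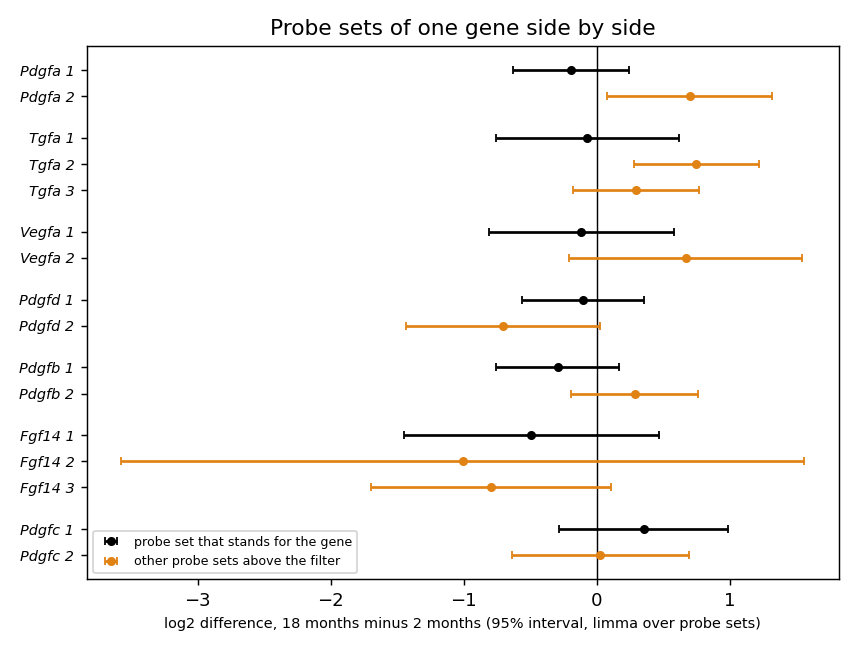
Log2 difference, 18 months minus 2 months, of each probe set above the filter for the 7 ligand genes with several, with 95% intervals from limma over 27022 probe sets. Black marks the probe set that stands for the gene and orange the others. Pdgfa, Tgfa, Vegfa and Pdgfb have points on both sides of 0.

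The start regions of the 3 genes whose probe sets differed most are shown because more than 1 transcript start is annotated for some of them, and the deposited values do not say which transcript a probe set reads. Each run is the sense strand, 5′ to 3′, of the 250 bases before to the 50 bases after the annotated start that lies farthest upstream, from RefSeq (GRCm38.p6). Capitals mark GC boxes, the letters GGGCGG on either strand, which are known to bind Sp1. The windows were chr5:138994895-138995194 (minus strand) for Pdgfa, chr17:46032328-46032627 (minus strand) for Vegfa and chr6:86194972-86195271 (plus strand) for Tgfa.
Pdgfa: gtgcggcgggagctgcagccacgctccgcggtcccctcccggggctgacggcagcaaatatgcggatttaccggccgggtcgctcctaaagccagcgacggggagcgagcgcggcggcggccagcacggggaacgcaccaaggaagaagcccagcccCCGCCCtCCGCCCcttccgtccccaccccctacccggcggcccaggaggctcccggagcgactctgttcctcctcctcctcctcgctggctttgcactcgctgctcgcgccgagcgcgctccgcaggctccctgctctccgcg
Vegfa: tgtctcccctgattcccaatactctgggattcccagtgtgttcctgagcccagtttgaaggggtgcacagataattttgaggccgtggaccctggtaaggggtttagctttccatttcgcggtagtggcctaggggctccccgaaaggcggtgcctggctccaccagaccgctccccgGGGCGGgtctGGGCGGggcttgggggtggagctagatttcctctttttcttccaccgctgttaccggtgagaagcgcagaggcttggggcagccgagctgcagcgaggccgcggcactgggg
Tgfa: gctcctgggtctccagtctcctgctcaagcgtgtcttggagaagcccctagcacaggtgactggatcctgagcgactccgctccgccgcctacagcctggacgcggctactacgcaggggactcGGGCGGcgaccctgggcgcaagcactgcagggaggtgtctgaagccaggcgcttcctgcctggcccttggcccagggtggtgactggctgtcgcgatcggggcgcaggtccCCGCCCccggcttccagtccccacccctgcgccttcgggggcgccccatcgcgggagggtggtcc
The table listed 2 starts each for Pdgfa and Vegfa and 1 for Tgfa. Each window held 2 GC boxes, and G and C made up 73.3% of the Pdgfa, 62.0% of the Vegfa and 70.7% of the Tgfa window. Such a box was present in 22 of 39 windows of 29 ligand genes (56.4%), and in 35.7% of all 32851 windows. No binding was measured, and a match is only a description of the letters. The part of transcript starts in the probe set differences was not tested.

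The receptors that receive these ligands were read from the same comparison. Of 18 receptor and co-receptor genes 15 were tested, and 0 were called in either direction at the same 0% background, with a median difference of -0.11. An unadjusted p under 0.05 was found for 1 higher and 1 lower gene, against 7.05% of all genes. Pdgfra, the receptor of the Pdgfa and Pdgfc products, had 9.64, 9.34 and 9.56 at 18 months, against 7.88, 7.61 and 7.21 at 2 months, with a difference of 1.95 (SE 0.22, limma adjusted p = 0.118). The mean of its probe sets gave 1.09. Pdgfra marks fibroblasts and oligodendrocyte precursors, and there was no separate marker list for precursors. The 9 oligodendrocyte markers averaged 7.49 to 8.86 at 18 months and 6.49 to 8.50 at 2 months. Of these 9, 8 had differences above 0, among them Mbp (0.02), Cnp (0.07) and Cldn11 (0.07), and only Mog had separate ranges. Of the 6 other stromal markers, 5 had differences below 0, and 2 were lower with separate ranges. The part of either cell type in the Pdgfra difference was not tested. Nrp2, a co-receptor for VEGFs, had 6.54, 6.89 and 6.98 at 18 months, against 7.25, 7.26 and 7.58 at 2 months, a difference of -0.56 (SE 0.20, limma adjusted p = 0.682).

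Kdr, the main endothelial receptor of VEGF-A, had 7.35, 8.30 and 7.36 at 18 months, against 8.49, 8.50 and 7.78 at 2 months. Its replicate 2 at 18 months lay among the young mice, and the difference was -0.59 (SE 0.34, limma adjusted p = 0.779). Flt1, the receptor shared by Vegfa, Vegfb and Pgf products, gave -0.0011 (SE 0.31, limma adjusted p = 0.999). Fgfrl1, an FGF receptor without a kinase domain, gave -0.28 (SE 0.16) with separate ranges. The other differences were 0.15 (SE 0.32) for Fgfr1, -0.25 (SE 0.39) for Fgfr2, -0.11 (SE 0.22) for Egfr, -0.32 (SE 0.31) for Erbb4 and 0.04 (SE 0.19) for Pdgfrb. Without 2-month replicate 2 Erbb4 gave -0.0034. In Fgfr2, 2-month replicate 2 stood at 12.27, while the other mice lay between 10.78 and 11.15.

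Genes that respond to the pathways or restrain them were not called either (17 tested of 21 listed, 0 higher and 0 lower, 0% of all genes called, median 0.03). An unadjusted p under 0.05 was found for 0 of them, against 7.05% of all genes. Spry1, a feedback inhibitor induced by FGF signalling, had 6.69, 6.73 and 6.91 at 18 months, against 6.28, 6.56 and 6.45 at 2 months. Its ranges were separate, with a difference of 0.35 (SE 0.17, limma adjusted p = 0.746). Dusp6, a phosphatase that inactivates ERK, gave 0.64 (SE 0.34). The ubiquitin ligase genes Cblb and Cbl, whose products remove active receptors, gave -0.64 (SE 0.28) and -0.74 (SE 0.36).

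Genes for the release, storage and activation of ligands gave 0 calls in either direction (22 tested of 29 listed, 0% of all genes called, median -0.02). An unadjusted p under 0.05 was found for 2 higher genes, Rhbdf1 and Ext1, and 2 lower ones, Sdc1 and Gpc3, against 7.05% of all genes. Sdc1, a heparan sulphate proteoglycan that holds FGFs at the cell surface, had 6.61, 6.20 and 6.67 at 18 months, against 7.27, 7.82 and 7.32 at 2 months. Every aged mouse lay below every young one, and the difference was -0.98 (SE 0.23, limma adjusted p = 0.507), or -0.53 with the mean of all probe sets. Gpc3, another cell-surface proteoglycan, gave -0.72 (SE 0.29). Its 18-month mean of 4.80 lay under the filter of 4.92, and Gpc3 passed the filter through its 2-month mean of 5.52. Ext1, an enzyme that builds heparan sulphate chains, gave 0.50 (SE 0.20), and Rhbdf1, which carries Adam17 to the surface, gave 0.67 (SE 0.26). Of the genes that relay the signal inside the cell, 19 of 26 were tested, 0 were called and the median was 0.07. The exchange factor gene Sos2, the only one with an unadjusted p under 0.05 (7.05% of all genes), gave 0.55 (SE 0.20), the kinase genes Akt1 and Map2k1 gave -0.45 (SE 0.23) and 0.42 (SE 0.23), and the adaptor gene Grb2 gave 0.31 (SE 0.19).

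**Figure D5:**
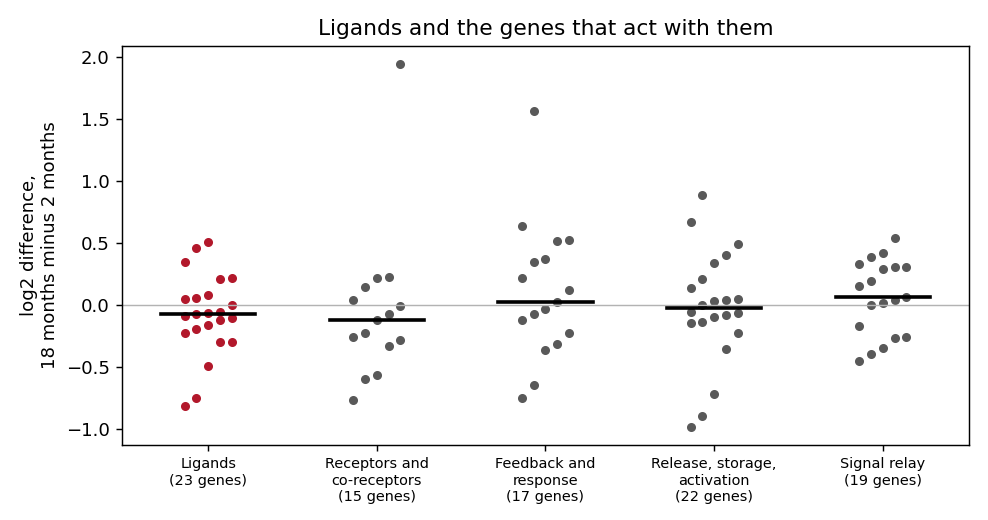
Log2 difference, 18 months minus 2 months, of each tested gene among the ligands (red) and 4 lists of genes that act with them (grey), with the median as a bar. All medians lie between -0.11 and 0.07, and Pdgfra stands highest at 1.95.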

How the data were processed

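The authors deposited a table of intensities for 45101 probe sets on 6 arrays, made with RMA per the submitters' processing notes (version not given in the sources used here). RNA was extracted with a miRNeasy kit and amplified with a Nugen Pico kit, per the labels' protocols. The deposited intensities ran from 2.47 to 26820.7, a linear scale, and their log2 was taken. Gene names came from GEO's annotation of the platform. All 77 ligand probe sets matched a RefSeq gene identifier (GRCm38.p6), and 0 symbols changed.

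The age difference of each gene was fitted with limma (version 3.58.1, R 4.3.3), two-sided and without covariates. Benjamini-Hochberg adjustment ran over all 12681 genes tested, and the threshold was 0.05. The fit was tested on simulated data first. The planted changes were all larger than any ligand difference reported here, so that test does not cover changes of the reported size. The number of arrays limits the precision. The deposited table held 0 columns of other samples, and 16 alternatives were run.

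The ligand genes, the gene lists and the tests were chosen with earlier results of these data known. Named with values were the 5 ligand genes of smallest p in each direction, 2 of each family, 7 fixed by name and the 3 whose probe sets differed most; of each pathway list 4 genes, and 8 receptors fixed by name. The other tested ligand genes and a few below the filter were added, and cell type markers are given as lists. Lists not given above had median differences of 0.52 for macrophages, 0.13 for astrocytes, -0.21 for ependymal cells and -0.19 for pericytes and smooth muscle. They held 8, 9, 8 and 5 tested genes, and 0 were called, against 0% of all genes. Their part in the ligand values was not tested.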

Additional observations from a re-analysis of the deposited data

How the results depend on the processing

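Under each of the 16 alternatives 0 ligand genes and 0 genes of the 4 pathway lists had an adjusted p under 0.05 by limma, including the fit with replicate number as a replicate block (lowest ligand adjusted p = 0.700). For mice of equal number the deviations from the mean of their age correlated at -0.02, 0.02 and 0.17 for numbers 1, 2 and 3. For mice of unequal number the correlations ran from -0.15 to 0.14. Whether mice of equal number shared a batch was not tested. Over all settings the lowest ligand adjusted p was 0.557, for Fgf13 without 18-month replicate 3, a gene whose 18-month mean lay under the filter. At an unadjusted p under 0.05, array weights gave Vegfb (7.72% of all genes), the replicate block Vegfb (7.07%), leaving out 18-month replicate 3 gave Fgf13 (6.41%), 2-month replicate 2 gave Fgf1 and Vegfb (6.75%), 2-month replicate 3 gave Nrg3 (6.68%), and leaving out both 18-month replicate 3 and 2-month replicate 2 gave Fgf1, Fgf13, Vegfb and Vegfc (6.99%). The median over tested ligand genes ranged from -0.15 with array weights to 0.01 with the mean of all probe sets. The count of ligand genes with an interval within 1 ranged from 7 with a 60th percentile filter, where 10 ligand genes were tested, to 28 of 40 with no filter. Over all genes, 0 passed in the main comparison, 4 with the 60th percentile filter, 5 with the mean of all probe sets, 5 with arrays centred on the median, 4 with array weights and 1 with the neuron score as covariate. These were drawn from Gh, H2-Aa, H2-Ab1, Spns2, Samd9l, Flvcr2 and Akr1b10, named after their values were seen, and none was a ligand gene. Differences changed sign in 24 of 346 recalculations for ligand genes, in 8 genes. The largest main differences among these genes were -0.29 for Fgf1 and -0.19 for Pdgfa. With the mean of all probe sets Pdgfa gave 0.25, Tgfa 0.33, Vegfa 0.28, Cblb 0.040, Flt1 0.28, Fgfr1 -0.058 and Fgfr2 0.11, since the probe sets of these genes differ. Under it Fgf22 gave 0.020, Pdgfb -0.0031, Fgfrl1 -0.17, Cbl -0.18, Ext1 0.16, Akt1 -0.21 and Grb2 0.089. Vegfc gave -0.030 with quantile normalization, -0.012 with centred arrays and -0.061 with the neuron score, and Flt1 gave 0.0023 with that score. Without both 18-month replicate 3 and 2-month replicate 2, Fgf12 gave -0.40, Fgf18 0.10, Fgf5 0.094, Fgfr2 0.24 and Pdgfrb -0.024. Leaving out each mouse in turn, the ranges were -0.32 to 0.58 for Vegfc, -0.21 to 0.47 for Fgf12, -0.41 to 0.27 for Fgf18, -0.14 to 0.040 for Fgf5, -0.25 to 0.17 for Tgfa, -0.28 to 0.12 for Vegfa, -0.70 to 0.014 for Fgf1, -0.24 to 0.27 for Flt1, -0.12 to 0.49 for Fgfr1, -0.53 to 0.21 for Fgfr2, -0.28 to 0.025 for Egfr and -0.072 to 0.13 for Pdgfrb. Apart from the probe set mean, the cause was not tested. Signal over background limits what can be read for the 17 ligand genes below the filter. It also limits tested genes close to the filter, namely Fgf3, Fgf5, Fgf9, Fgf11, Fgf20 and Fgf22, and Fgf13 at 18 months. For all tested ligand genes, 3 mice at each age limit the precision. Whether either accounts for the absence of calls was not tested.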
